A study of Mus musculus with 2 samples.

Results

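The organic ion and drug transporter genes are the protein-coding genes of the Slc22a, Slco and Abcc families, which move drugs, bile acids, conjugated hormones, carnitine and urate across cell membranes. The members were chosen with earlier results of these data known. They were picked by gene symbol, as GENCODE mouse release 21 genes of these 3 families without Slco1b2. This gave 48 of 21755 protein-coding genes on the autosomes and the X chromosome: 25 Slc22a, 13 Slco and 10 Abcc genes. The data are chromatin immunoprecipitation followed by sequencing (ChIP-seq) with an antibody against GATA4, from the whole liver of healthy adult mice, in 1 group of 2 samples. The samples are labelled biological replicates 1 and 2 but carry the same donor identifier, so any spread between the 2 may be technical only. No treatment, genotype or strain is labelled, and neither age nor sex is known from the labels. The mm10 list that the authors call optimal holds 24050 peaks on the assembled chromosomes, ranked here by the peak caller's signal score, with rank 1 the strongest. A gene was counted as having a summit when the highest point of a peak lay in the gene or within 10 kb of it. That distance does not assign a peak to a gene, and in whole tissue fewer bound cells and less binding per cell cannot be told apart.

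GATA4 is a zinc finger transcription factor that binds DNA at the core letters GATA and acts in the endoderm, the heart and the liver, where hepatocytes and the endothelial cells of the sinusoids both hold it. In hepatocytes, organic cation transporters (OCTs), organic anion transporters (OATs) and organic anion transporting polypeptides (OATPs) on the blood side take up drugs and metabolites. Multidrug resistance-associated proteins (MRPs), the Abcc pumps, export conjugates into bile or back into blood.

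The sequences under the member summits are shown first, because the motif counts further on rest on them. They run from 50 bases before to 50 bases after the summit of 9 of the 10 member peaks of rank 5000 or better, on the plus strand of mm10. A pair of promoter peaks, of Slc22a7 and Abcc2, was added after their values were seen. Capitals mark every copy, on either strand, of the GATA motif, written WGATAR: the letters GATA preceded by A or T and followed by A or G.
Slco1a4, upstream, rank 580, chr6:141857870-141857970: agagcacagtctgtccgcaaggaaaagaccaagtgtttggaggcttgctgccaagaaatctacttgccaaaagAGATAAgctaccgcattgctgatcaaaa
Slco2b1, intron, rank 763, chr7:99702333-99702433: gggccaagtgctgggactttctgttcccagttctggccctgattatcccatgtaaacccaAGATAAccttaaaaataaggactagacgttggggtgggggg
Slco2b1, downstream, rank 1743, chr7:99648705-99648805: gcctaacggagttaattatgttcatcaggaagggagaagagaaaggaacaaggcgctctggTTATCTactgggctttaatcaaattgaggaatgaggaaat
Abcc4, intron, rank 2024, chr14:118551899-118551999: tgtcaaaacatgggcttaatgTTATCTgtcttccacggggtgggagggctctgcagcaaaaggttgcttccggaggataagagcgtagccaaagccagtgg
Abcc4, intron, rank 2093, chr14:118667662-118667762: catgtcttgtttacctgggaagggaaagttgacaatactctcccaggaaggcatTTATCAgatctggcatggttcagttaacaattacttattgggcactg
Abcc3, intron, rank 2918, chr11:94365524-94365624: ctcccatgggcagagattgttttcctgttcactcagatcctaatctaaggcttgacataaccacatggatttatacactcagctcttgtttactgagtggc
Abcc6, intron, rank 3007, chr7:45992676-45992776: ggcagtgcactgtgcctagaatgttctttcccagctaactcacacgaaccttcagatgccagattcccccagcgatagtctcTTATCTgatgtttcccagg
Slco2a1, intron, rank 3644, chr9:103037071-103037171: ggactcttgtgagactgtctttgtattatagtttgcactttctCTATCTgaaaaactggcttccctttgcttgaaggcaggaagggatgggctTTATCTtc
Slco2a1, intron, rank 3970, chr9:103049009-103049109: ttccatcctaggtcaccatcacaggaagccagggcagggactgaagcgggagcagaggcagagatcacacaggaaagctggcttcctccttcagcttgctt
Slc22a7, promoter, rank 9860, chr17:46438662-46438762: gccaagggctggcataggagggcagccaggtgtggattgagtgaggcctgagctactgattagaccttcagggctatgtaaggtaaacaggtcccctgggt
Abcc2, promoter, rank 11681, chr19:43782088-43782188: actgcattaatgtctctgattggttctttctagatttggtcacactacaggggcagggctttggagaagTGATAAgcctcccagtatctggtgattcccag
All but the Abcc3 window, the second Slco2a1 window (rank 3970) and the Slc22a7 window hold at least 1 copy. The copy in the Slco1a4 window reads AGATAA and lies 25.5 bp from the summit, and the copy in the Abcc2 promoter window reads TGATAA and lies 21.5 bp from it.

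Of the 48 members, 20 had a linked summit, which is 41.7%, and 28 had none. Over all protein-coding genes the share was 47.6%. A longer gene has more room for a summit, and the members, with a median span of 57.2 kb against 17.4 kb for all genes, are long. Among all genes in the same 20 bins of gene span as the members, 59.0% had a summit, a share that would give 28.3 members. The members therefore lay below the share of genes of like span under this link. When each peak was given to its nearest start site instead, 24 members (50%) had a peak, against 43.1% of all genes, so the order against all genes turned. That share of all genes is not matched for span. By family, 10 of 25 Slc22a genes (40%), 4 of 13 Slco genes (30.8%) and 6 of 10 Abcc genes (60%) had a summit, where the span bins gave 55.4%, 62.2% and 63.8%. These shares are descriptions without a test, since genes are not replicates and neighbouring members can share a locus.

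**Figure D1:**
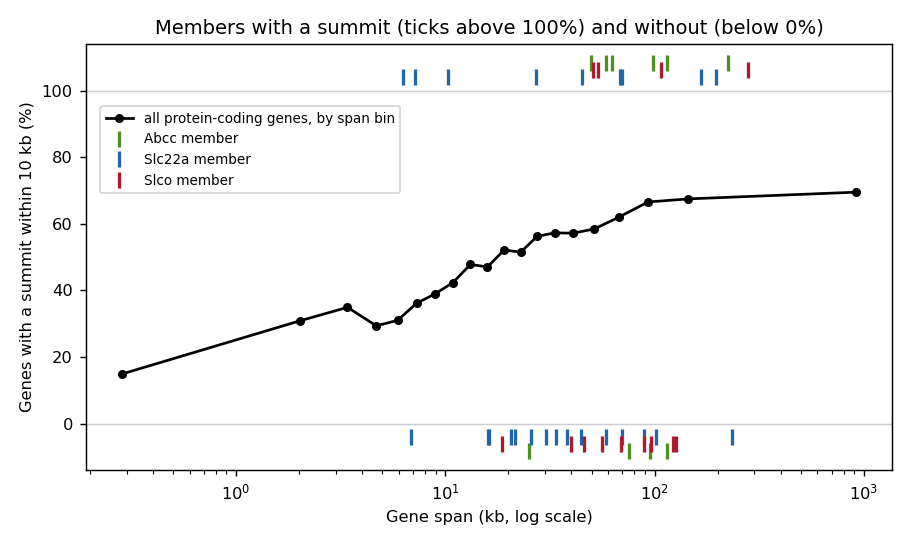
Share of all protein-coding genes with a summit within 10 kb (black line, 20 bins of gene span, log axis in kb), with 47 members as ticks at their own spans, above 100% for those with a summit and below 0% for those without, coloured by family. The share for all genes broadly rises with span, and 19 ticks lie above and 28 below.

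The 20 members held 56 linked peaks, none of them shared by a pair of members. After overlapping peaks were merged, 54 separate regions were left, because a pair of peaks in Slco3a1 and another at the Abcc4 promoter overlap. There were 1.17 summits per member, against 1.61 per gene in the same span bins. A single summit was found at 9 members, 2 to 4 at 6 members, and 5 or more at 5 members (Abcc2, Abcc4, Slc22a14, Slco2a1 and Slco2b1). Over all genes, 4.69% had 5 or more summits, and 8.74% in the span bins, against 10.4% of the members. Without Slc22a14, whose peaks lie nearest other genes, it was 8.51% of the members against 8.40%, and the 5 of Abcc4 include an overlapping pair. A linked summit of rank 1000 or better was found at 3 members, among them Slco1a4 and Slco2b1, which is 6.25%, against 3.75% of all genes and 5.51% in the span bins.

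**Figure D2:**
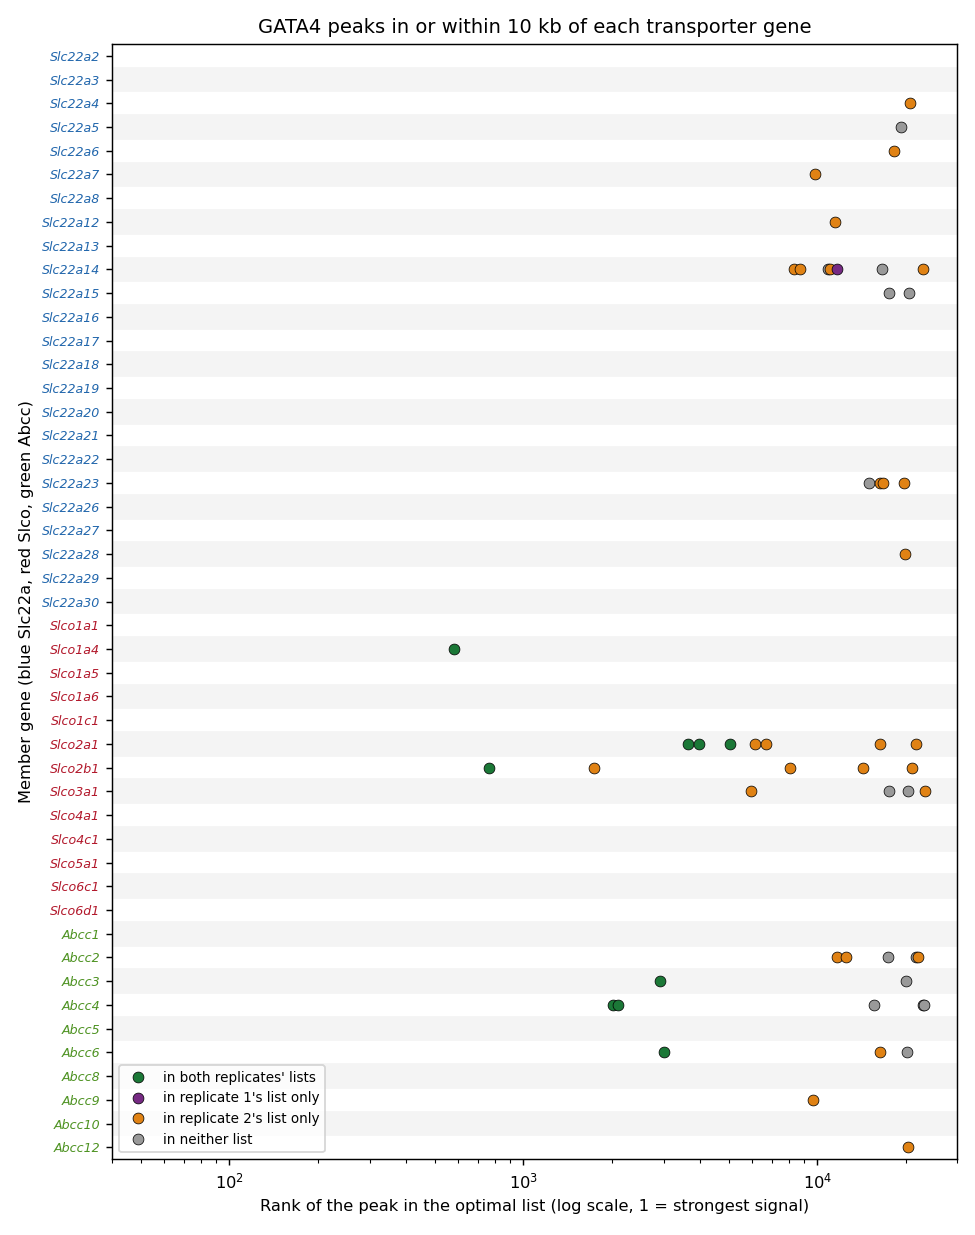
Rank in the optimal list (log axis, 1 is the strongest signal) of 53 linked peaks, 1 row for each of 47 members, coloured by whether the peak overlaps a peak in the thresholded list of either replicate. Peaks in both replicates' lists sit at the strong end, from rank 580 at Slco1a4 to rank 5051 at Slco2a1, and 28 rows are empty.

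Of the organic cation transporter genes, Slc22a2 (OCT2, best known from the kidney) and Slc22a3 (OCT3) had no summit within 10 kb. The summit nearest to Slc22a3 was 83.7 kb away.

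Of the 5 carnitine and zwitterion transporter genes, 3 had a summit, all of them weak (60%, against 58.0% of all genes in their span bins). Slc22a5 encodes OCTN2, the carnitine importer, and had 1 intron peak of rank 19295, in neither replicate's thresholded list. Slc22a4 encodes OCTN1, the ergothioneine transporter, and had 1 peak of rank 20623, 94 bp upstream of its start site. The Slc22a4 window was 70.3% G and C and held no WGATAR. Its peak was in the list of replicate 2 and had no overlapping peak in the relaxed list of replicate 1 (the relaxed lists hold weak peaks and background too). Slc22a15 had intron peaks of ranks 17588 and 20508, in neither thresholded list. Slc22a16 and Slc22a21 had none, with the nearest summit 70.1 kb and 38.7 kb away.

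Of the 13 organic anion and urate transporter genes, 4 had a summit, and each had 1 (30.8%, against 52.8% in their span bins). Slc22a7 encodes OAT2, an anion transporter of the liver. Its peak, at chr17:46438532-46438891, had rank 9860 and lay 255 bp upstream of the start site. It was in the list of replicate 2, with a relaxed signal score of 37.5, and had no overlapping peak in the relaxed list of replicate 1. No WGATAR was found in its window or in the whole peak, and the summit is also within 10 kb of Crip3 and Ttbk1. Slc22a12, the urate transporter URAT1 of the kidney, had an exon peak of rank 11502, whose summit is also within 10 kb of Nrxn2. Slc22a6 (OAT1, of the kidney) had a peak of rank 18292, 3.02 kb past its end, and Slc22a28 an intron peak of rank 19949. All 4 peaks were in the list of replicate 2 and none in that of replicate 1. The 9 without a summit were Slc22a8 (OAT3, of the kidney), Slc22a13, Slc22a19, Slc22a20, Slc22a22, Slc22a26, Slc22a27, Slc22a29 and Slc22a30. A run of 8 Slc22a genes lies on chromosome 19 over 955 kb. In that stretch 4 summits fell, and 2 of its genes (Slc22a6 and Slc22a28) had a linked summit. The Slc22a28 peak is among the 4, while the Slc22a6 peak lies past the end of the stretch. The Slc22a6 peak was the nearest summit to Slc22a8 as well, at 19.5 kb.

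Of the remaining Slc22a genes, Slc22a23, an orphan transporter, had 4 intron peaks of ranks 15041 to 19804. The peak of rank 15041 was in neither replicate's list and the other 3 were in the list of replicate 2. Slc22a17, a receptor for the iron-carrier protein lipocalin 2, and the imprinted gene Slc22a18 had none.

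Slc22a14, known from sperm, had 7 linked peaks of ranks 8319 to 22901, but they cannot be read as 7 peaks of that gene. Its GENCODE span is 196 kb and holds other genes, while its RefSeq span is 20.98 kb. All 7 summits lay nearest a start site of another gene (Acaa1a, Xylb, Oxsr1 or Gm47289), and 3 of them were promoter peaks of Xylb or Oxsr1. With the RefSeq span 1 linked peak was left, of rank 11718, which was in the list of replicate 1 and not in that of replicate 2. Without Slc22a14, 19 of 47 members (40.4%) had a summit, against 58.8% in their span bins.

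Among the 5 OATP1 genes counted here, which leave out Slco1b2, Slco1a4 alone had a summit (20%, against 61.6% in their span bins). Slco1a4 encodes a broad uptake carrier for bile acids, steroid conjugates and digoxin. Its peak, at chr6:141857846-141858009, had rank 580 and lay 1.75 kb upstream of the start site. Its relaxed signal score was 42.6 (rank 272) in replicate 1 and 81.2 (rank 1208) in replicate 2, and it was in both thresholded lists. The window holds 1 AGATAA, 25.5 bp from the summit, and 1 copy each of the ETS and C/EBP motifs defined further on. Slco1a1, Slco1a5, Slco1a6 and Slco1c1, the last known as a thyroid hormone carrier of the blood-brain barrier, had no summit. These genes and Abcc9 lie in a stretch of 1178 kb on chromosome 6 that held 12 summits. Of the 12, the peak of rank 580 was linked to a member, and the Abcc9 peak lies outside the stretch. The summit nearest to Slco1a1, of rank 2319, lay 15.7 kb away, beyond the 10 kb limit.

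Slco2b1, Slco2a1 and Slco3a1 had summits among the 6 genes of OATP2 to OATP5 (50%, against 62.1% in their span bins). Slco2b1 encodes a carrier of steroid sulfates and drugs. Its strongest peak, of rank 763 in an intron at chr7:99702233-99702501, had a relaxed signal score of 28.8 (rank 985) in replicate 1 and 89.3 (rank 884) in replicate 2. The next Slco2b1 peak, of rank 1743, lay 9.05 kb past the end of the gene, inside the 10 kb limit, and nearest the start site of Tpbgl. It scored 82.9 (rank 1147) in replicate 2 but 11.96 (rank 8291) in replicate 1, and was in the thresholded list of replicate 2 only. Of the 10 member peaks of rank 5000 or better, it was the one that was not in both lists. The other Slco2b1 peaks, of ranks 8103, 14334 and 20969, were downstream, 960 bp from a start site and in an exon, in that order.

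Slco2a1 encodes the prostaglandin transporter. It had 7 peaks, and those of ranks 3644, 3970 and 5051 were in both replicates' lists. Their relaxed signal scores were 24.7, 16.7 and 14.5 in replicate 1 and 43.3, 54.5 and 44.2 in replicate 2. The peak of rank 3644, at chr9:103037097-103037245, holds 2 copies of WGATAR. The RefSeq span of Slco2a1 is 88.9 kb, against 107 kb in GENCODE. It left 5 of the 7 peaks, without those of ranks 5051 and 6675. Slco3a1 had intron peaks of ranks 5968, 17490, 20362 and 23213, of which the first and last overlap and are 1 region. The peak of rank 5968 was in the list of replicate 2 only. Slco4a1, Slco4c1 and Slco5a1, and the OATP6 genes Slco6c1 and Slco6d1, known from the testis, had no summit.

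**Figure D3:**
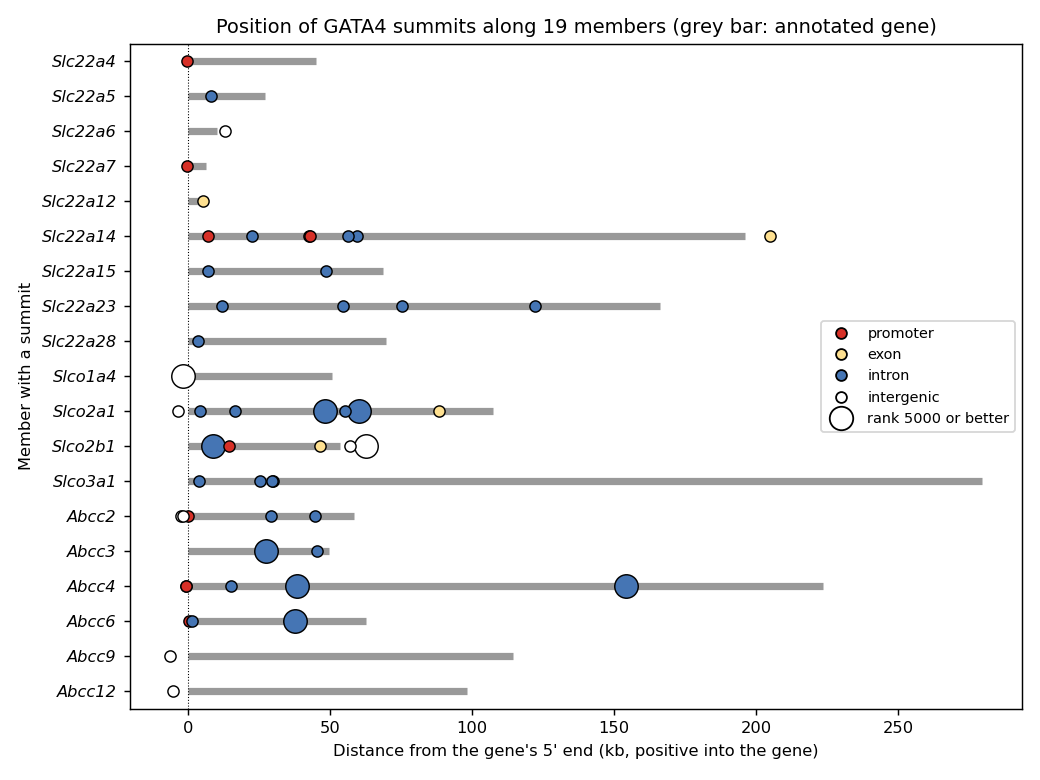
Summits along 19 members with one, in kb from the gene's 5′ end (grey bar, the GENCODE gene), coloured by class, with large circles for rank 5000 or better. The large circles sit in introns or outside the gene, and the circles at the 5′ end are all small except that of Slco1a4, 1.72 kb before it.

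Of the 8 MRP genes, 5 had a summit, which is 62.5% and near the 63.6% of their span bins. Abcc2 encodes MRP2, the pump of the bile canaliculus for conjugated bilirubin. Its strongest peak, at chr19:43781958-43782317, had rank 11681 and lay 54 bp upstream of the start site. It scored 31.9 (rank 10368) in the relaxed list of replicate 2 and 4.70 (rank 235129) in that of replicate 1, and was in the thresholded list of replicate 2 alone. The other Abcc2 peaks, of ranks 12565, 17383, 21691 and 21992, lay in introns or upstream. None of the 5 was in the list of replicate 1, and 3 were in that of replicate 2. Of the 5, 4 hold WGATAR.

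Abcc4, Abcc3 and Abcc6 had peaks in both replicates. Abcc4 encodes MRP4, which exports cyclic nucleotides and bile acids into blood. Its peaks of ranks 2024 and 2093, at chr14:118551847-118552031 and chr14:118667639-118667751, lay in introns 154 kb and 38.5 kb from the start site. They scored 21.5 and 30.6 in the relaxed list of replicate 1 and 65.7 and 54.2 in that of replicate 2. Its promoter peaks, of ranks 22891 and 23086, overlap each other and were in neither thresholded list. Abcc3 encodes MRP3, the pump of the blood side. Its intron peak of rank 2918, at chr11:94365522-94365663, scored 18.7 in replicate 1 and 55.1 in replicate 2. No WGATAR lay within 50 bp of its summit, though the whole peak holds one. Abcc6 encodes MRP6, whose loss causes ectopic calcification. Its intron peak of rank 3007, at chr7:45992676-45992790, scored 25.6 in replicate 1 and 47.6 in replicate 2. Its peaks of ranks 16299, 348 bp from the start site, and 20255 are also within 10 kb of Nomo1. Abcc12 had 1 peak of rank 20323, 5.09 kb upstream, in the list of replicate 2. Abcc1 (MRP1), Abcc5 (MRP5) and Abcc10 (MRP7) had none. Of the sulfonylurea receptor genes, which encode subunits of ATP-sensitive potassium channels, Abcc9 had 1 peak of rank 9688, 6.17 kb upstream, and Abcc8 had none.

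The 28 members without a summit lay a median of 69.9 kb from one. The nearest was 12.5 kb away for Slc22a17 and 14.4 kb for Slc22a20, just beyond the limit, and the farthest 794 kb for Slco4c1. The distance was under 50 kb for 10 genes, 50 to 150 kb for 13 and over 150 kb for 5. Replicate 2's own thresholded list had a summit for 6 of the 28 (Abcc8, Abcc10, Slc22a20, Slc22a27, Slco1c1 and Slco4c1), and replicate 1's for none. At 21 of the 28 no summit was found in any of the 5 lists compared, which are the optimal, the conservative, each replicate's own and that of a later run on pooled reads. Over all genes, replicate 2's list gave 51.8% a summit, against 47.6% for the optimal list. The share of all genes with no summit in any of the lists was not counted. Nor was the share of genes without an optimal summit that had one in replicate 2's list.

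Most member peaks lay in introns. Of the 56, 33 were in introns (58.9%, 95% Wilson interval 45.9 to 70.8), 10 within 1 kb of a start site, called promoter here (17.9%, 10 to 29.8), 4 in exons (7.14%) and 9 between genes (16.1%). Over all 24050 peaks the shares were 40.4%, 21.6%, 2.33% and 35.7%. The link rule takes peaks in or near genes and so raises the intron share and lowers the intergenic one. Wilson intervals here cover counting error over peaks only. The member peak share for promoters overlaps that of all peaks. Of the 10 promoter peaks, 7 lay at the member's own start site and the other 3, all linked to Slc22a14, at another gene's. A summit within 1 kb of an own start site was found at 6 members (Abcc2, Abcc4, Abcc6, Slc22a4, Slc22a7 and Slco2b1), which is 12.5%, against 22.6% of all genes and 27.1% in the span bins. The 10 promoter peaks had ranks from 8714 to 23086, with a median of 16433.5. Promoter peaks over the whole list were weak as well, with a median rank of 14464 against 12025.5 for all peaks. None of the 10 was in the list of replicate 1 (0%, 0 to 27.8). That interval includes the 6.14% of all promoter peaks.

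The WGATAR motif lay within 50 bp of 36 of the 56 member summits, which is 64.3% (51.2 to 75.5), against 52.8% of all summits. The interval includes the share of all summits. In equally long flanks, centred 500 bp before and after the member summits, the share was 20.5%, and 16.0% for all peaks. By family the copies were found at 11 of 22 Slc22a summits, 12 of 17 Slco summits and 13 of 17 Abcc summits. Outside promoters the share was 67.4% (31 of 46), against 60.3% of all such peaks. In promoters it was 5 of 10 (50%, 23.7 to 76.3), against 25.7%, which that interval includes. The 5 include the overlapping Abcc4 pair and the peak of rank 8714, within 1 kb of the start site of Xylb. The stricter word AGATAA, which is part of the WGATAR count, was found at 35.7% of member summits (24.5 to 48.8). It was found at 2.68% of their flanks and 27.2% of all summits. Of the 20 members with a summit, 15 had a linked peak with WGATAR, and 14 had it in their strongest peak. The 6 without it there were Abcc3, Slc22a4, Slc22a6, Slc22a7, Slc22a12 and Slc22a23.

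Other motifs were searched on both strands in the same windows. The ETS core, GGAA preceded by A or C and followed by A or G, was found at 37.5% of member summits (26.0 to 50.6), against 46.0% of all summits. The C/EBP word TTGCNNAA was found at 7 of 56, or 12.5% (6.19 to 23.6), against 5.87% of all. The nuclear receptor word AGGTCA was found at 5.36% (1.84 to 14.6), against 11.8%, and the E-box CAGCTG at 5.36% (1.84 to 14.6), against 7.68%. The SP word GGGCGG was found at 3.57% (0.985 to 12.1), against 9.33%. The intervals for the ETS, nuclear receptor, E-box and SP words include the shares of all summits. The HNF1 word GTTAAT was found at 1 of 56 (1.79%, against 2.57%), and the HNF4 word, CAAAGT followed by C or T and then CA, at 0 of 56 (an upper bound of 6.42%, against 0.973%). These counts are of 7 summits or fewer each, except for the ETS core. A match is a stretch of letters, not a measured site.

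**Figure D4:**
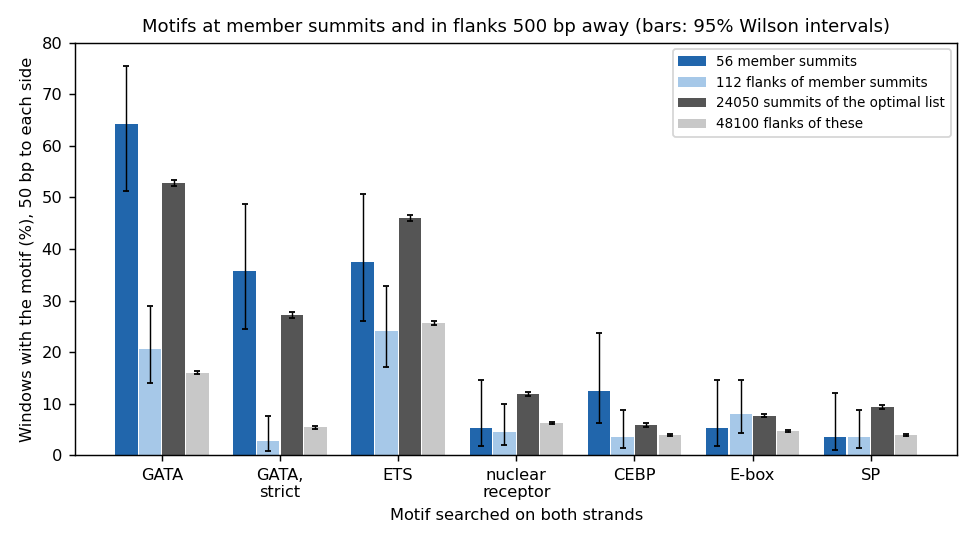
Share of windows, 50 bp to each side, with each motif (percent, bars with 95% Wilson intervals) at member summits, in their flanks, at all summits and in the flanks of these. The GATA bars at summits, 64.3% for members and 52.8% for all peaks, stand above their flanks at 20.5% and 16.0%.

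Replicate support of the member peaks was uneven. Of the 56, 11 overlapped a peak in the thresholded list of replicate 1 (19.6%, 11.3 to 31.8), against 17.0% of all peaks. In the list of replicate 2 there were 39 (69.6%, 56.7 to 80.1), against 82.5% of all peaks. In both lists there were 10 (17.9%, against 16.3%), and in neither 16 (28.6%, 18.4 to 41.5, against 16.7%). The lists differ in length, with 4287 peaks for replicate 1 and 26314 for replicate 2, and come from a later run than the optimal list. In the conservative list, of the same run as the optimal one, there were 19 (33.9%, against 38.2%). Among these 19 is the Slc22a23 peak of rank 15041, which was in neither replicate's list. By gene, 8 of 48 members had a summit in the list of replicate 1 (16.7%, against 11.4% of all genes and 17.3% in the span bins). In the list of replicate 2 there were 25 (52.1%, against 51.8% and 62.8%), and in the conservative list 11 (22.9%, against 21.9% and 31.1%). A list of a later run on the pooled reads gave 22 members, against 47.2% of all genes.

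Support followed rank. Of the 10 member peaks of rank 5000 or better, 9 were in both lists and 8 had WGATAR, against 58.8% and 75.6% of all peaks of such rank. Of the 46 weaker ones, 1 was in both lists and 28 had WGATAR, against 5.11% and 46.8%. The member peaks as a whole were weaker than the list, with a median rank of 15772.5 against 12025.5. By family the median was 16435 for the 22 Slc22a peaks and 16299 for the 17 Abcc peaks. The 17 Slco peaks, at 4 genes, were stronger than the list, with a median of 6675. The weakest 20% of all peaks held 18 of the 56 (32.1%, 21.4 to 45.2). A linked peak in both replicates' lists was found at 7 members, among them Slco1a4, Slco2a1, Slco2b1, Abcc3, Abcc4 and Abcc6.

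**Figure D5:**
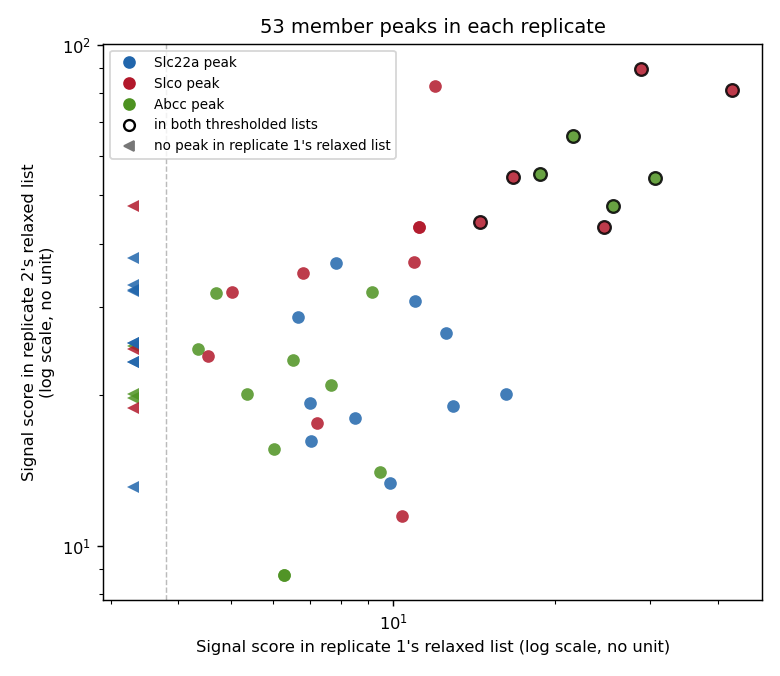
Signal score of 53 member peaks in the relaxed list of each replicate (both axes log, no unit), coloured by family, with black rings for peaks in both thresholded lists and triangles left of the dashed line for the 15 peaks with none in replicate 1. The ringed points lie to the upper right, with scores from 14.5 in replicate 1 and from 43.3 in replicate 2.

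Genes around the members were counted from lists of other transporters, regulators of transporter genes and scaffolds. These lists and that of cell type markers were chosen with earlier results of these data known. Their counts are descriptions only, and Hnf4a is in both the regulator and the hepatocyte list. A summit was found at 13 of 20 other transporter genes (65%, against 55.0% in their span bins). Those with the strongest peaks were Slc17a3 (rank 449), Slc17a2 (2912), Abcg2 (4781), Abcb1b (5721), Abcb1a (7437) and Slc29a1 (7544). Of the bile acid transporters in that list, Abcb11, the bile salt export pump, had 1 promoter peak of rank 8363. Slc10a1, the bile acid importer of hepatocytes, had 2 summits, and Slc10a2, that of the ileum, had 2, the stronger of rank 17009. Slc51a and Slc51b, the subunits of the basolateral bile acid exporter, had none. All 12 regulator genes had a summit, against 51.8% in their span bins, with the strongest at Ppara (rank 38), Nr1i3 (406), Nr1i2 (436), Nr0b2 (556), Cebpa (1233) and Hnf4a (1443). Nr1i2 and Nr1i3 encode PXR and CAR, the nuclear receptors for drugs. All 5 scaffold genes had one, against 53.2% in their span bins, the strongest at Pdzk1 (rank 947). Of the cell type markers, 6 of 6 hepatocyte and 6 of 6 sinusoidal endothelial genes had a summit, where the span bins gave 46.6% and 55.0%. For Kupffer cells it was 0 of 5, for stellate cells 1 of 5 and for cholangiocytes 0 of 5, where the span bins gave 54.7%, 53.0% and 39.4%. Which cells the member peaks came from was not tested.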

How the data were processed

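Peak lists of GATA4 ChIP-seq were read as deposited. Per the deposited README tables, the authors made the optimal and conservative lists in an earlier run, and each replicate's thresholded list and the pooled list in a later one. Aligner and caller were not given in the sources used here, and read depth is unknown, so intervals cover counting error over peaks only. The authors deposited 2 scores per peak: a signal score without a unit, used to rank peaks within 1 list, and a score for the irreproducible discovery rate (IDR), which the values show to be 125 times its negative log2 with a cap of 1000. The lowest IDR score in the optimal list was 537. Of 24083 lines, 33 off the assembled chromosomes were left out.

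Summits were compared with GENCODE release 21 basic protein-coding genes, without those on Y, and RefSeq spans and sequences (GRCm38.p6, which is mm10), in Python 3.11.15 with numpy 2.4.6, scipy 1.17.1 and pysam 0.24.0. Figures were drawn with matplotlib 3.10.9. A peak was promoter within 1 kb of any start site, otherwise exon, intron or intergenic, and supported by a replicate if it overlapped a peak of that list by 1 base. Genes of like span were all genes in the same of 20 bins, so the comparison draws no gene at chance. The linking, overlap and motif steps were tested on simulated data. With 1 group there is no comparison between groups and no p-value. All members without a summit were named. Those with one (20 at most) were described by their strongest peak, as were the 6 strongest of the other lists. The members and lists were chosen with earlier results of these data known. The results of 1 member are not reported here singly, and the figures leave it out, but all counts and shares over members include it.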

Additional observations from a re-analysis of the deposited data

How the results depend on the processing

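The count of 20 members stayed within 1.5 times under 6 planned settings, but its place against all genes moved. The share of members was 62.5% within 50 kb (30 members), against 68.4% of all genes, and 29.2% at an IDR of 0.01 (14), against 36.8%. With a summit inside the gene it was 29.2% (14), near the 28.9% of all genes. By the nearest start site it was 50% (24), above the 43.1% of all genes. The members were thus not lower than all genes under these last 2 rules. None of the all-gene shares in this paragraph is matched for gene span. They do not give the members' place among genes of like span. The count was 11 when only start sites were used, within 5 kb (22.9%, against 30.0% of all genes), and 11 in the conservative list (22.9%, against 21.9%). With 1 replicate's own list it was 8 (replicate 1) or 25 (replicate 2). The promoter share of 17.9% became 41.2% within 5 kb of a start site, 0% in the conservative list (all peaks 10.4%) and 30.4% with a promoter distance of 2500 bp (all peaks 26.96%), and ranged from 0% to 20.97% with 1 replicate's list. The WGATAR share of 64.3% became 76.5% within 5 kb of a start site, 35.7% for AGATAA (all peaks 27.2%) and 50% for AGATAA or TGATAA (all peaks 40.9%), and ranged from 56.5% to 81.8% with 1 replicate's list. The share in the list of replicate 1 was 10.7% with a 50% overlap (all peaks 12.7%) and 44.6% in its ranked list before the threshold (all peaks 45.2%). The share in that of replicate 2 was 98.2% in its ranked list (all peaks 98.0%). Leaving out Slc22a14 and using RefSeq spans were chosen after seeing the data. They gave 19 of 47 and 21 of 48 members. Some of these shifts follow from the settings. A wider promoter distance can only raise the promoter share, and the AGATAA and TGATAA words are part of the WGATAR count. Linking within 5 kb of a start site favours promoter peaks, and the share of all peaks under that link was not counted. The cause of the other shifts was not tested. No paired analysis was possible because there is 1 group. Arms of 1 sample allow no test, and read depth is unknown.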

Other observations

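RefSeq promoter sequences, from 250 bases before to 50 after a start site, were found for 39 of the 48 members, with 46 promoters in all. WGATAR lay in 17 of these (37.0%), against 25.2% of 20083 promoters of all genes. A summit of the optimal list fell in 2 of the 46 promoters, those of Abcc2 and Slc22a4, against 13.2% of all promoters. Of the 2, only that of Abcc2 also holds the motif. Slc22a13, an anion transporter gene, had 3 copies in its promoter and no summit within 10 kb.

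The list of the later run had summits at 3 members without one in the optimal list: Abcc10, Slc22a26 and Slco4c1. It had no summit at Slc22a4, whose peak in the optimal list had rank 20623. Over all genes, 47.2% had a summit in the later list, against 47.6% in the optimal list. RefSeq spans added Slc22a29, with 2 linked summits.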
